A study of Mus musculus with 6 samples.

Results

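The genes examined here encode the megalin-cubilin endocytosis machinery of the kidney. There are 7 of them, chosen by name: Lrp2, Cubn, Amn, Dab2, Lrpap1, Clcn5 and Ocrl. All 7 had a row among the 12125 genes analysed, and all 7 passed the filter on low values, which 9966 genes passed. RNA was sequenced from 6 libraries, 3 labelled Trf1+/+ and 3 labelled Trf1flox/flox, each made from 500 cells sorted from mouse kidney as CD29-positive fibroblasts carrying the reporter. Mice of both genotypes carried a Cre recombinase that tamoxifen activates (Col1a2-CreERT2), driven by the promoter of the collagen gene Col1a2, and a KFP red fluorescent reporter allele silent until Cre removes a stop cassette. Both genotypes also received tamoxifen, 3 injections a week for 8 weeks, starting at 6 to 8 weeks of age, in males and females, so the groups differed by label only in the Trf1 allele. Trf1 (gene symbol Terf1) encodes a telomere-binding protein of the shelterin complex, and the study asked what its loss in fibroblasts does to the kidney. The labels give neither the sex of the mouse behind a library nor the mouse itself. The study counts its groups in mice, and the p-values measure the spread between these libraries.

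Megalin, the product of Lrp2, and cubilin are very large receptors in the apical brush border of proximal tubule cells, where they take filtered proteins, vitamin carriers and hormones out of the tubule fluid. Cubilin has no membrane anchor of its own and reaches the surface bound to amnionless, while megalin needs a chaperone in the endoplasmic reticulum and an adaptor that links its tail to clathrin. Once internalised, the receptors release their cargo in acidified endosomes and return to the surface, and loss of this cycle leads to low-molecular-weight proteinuria. The proximal tubule is its main site in the kidney. Renal fibroblasts are not known for it.

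The libraries held 10263382 to 12248797 reads assigned to genes, and a single read was worth 0.689 to 1.09 normalized counts, the deposited unit (reads per gene divided by a size factor for the library). Terf1, the targeted gene, stood at 0.891, 253 and 235 normalized counts in Trf1+/+ replicates 1, 2 and 3 and at 110.0, 7.65 and 12.4 in the Trf1flox/flox replicates. The library labelled Trf1+/+ replicate 1 thus went against its label. The Trf1flox/flox group was not uniformly low either, with 128 reads of Terf1 in replicate 1 against 7 and 18 in replicates 2 and 3. These values cover the whole gene, including any exon outside the deleted stretch. The library labelled Trf1+/+ replicate 1 also stood apart in depth per gene, with a median of 13.4 normalized counts against 118 to 148 in the other 5, and 12.9% of the genes averaging at least 100 elsewhere were at 0 in it. The labelled cell type was not borne out by the markers that had values. Of 16 fibroblast markers 2 were among the genes analysed, with Col1a2 at 0 to 1.78 and Dcn at 0 to 97.3 normalized counts. The other 14 had no row, so their levels are not known. An absent row is not a measured 0, since at least 1 gene at 0 in all 6 libraries had a row. All 20 proximal tubule markers and all 12 markers of the loop, distal tubule and collecting duct were present. They summed to 35110 to 177416 and 57223 to 157382 normalized counts, in that order. In such pooled cells, fewer cells of a type and less RNA per cell cannot be told apart.

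In these libraries the receptor genes were unevenly represented. Lrp2 was abundant in every library, Cubn was lower and much more variable, and Amn, whose product cubilin depends on, ranged from no read at all to 1088 normalized counts. The chaperone and adaptor genes Lrpap1 and Dab2 never fell below 501 normalized counts. None of the 7 genes passed a test of the difference between genotypes, and the values of the 2 groups overlapped for all 7.

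Lrp2 encodes megalin, an endocytic receptor of the low-density lipoprotein (LDL) receptor family, and lies on chromosome 2 at 69424340 to 69586065 (minus strand, 79 exons in its longest coding transcript, GENCODE vM21 annotation of GRCm38). Trf1+/+ replicates 1, 2 and 3 had 2162, 473.9 and 3999.6 normalized counts of Lrp2, and Trf1flox/flox replicates 1, 2 and 3 had 2548, 2056 and 6454. The lowest value was Trf1+/+ replicate 2 and the highest Trf1flox/flox replicate 3, 13.6-fold apart, and the groups overlapped. The means were 2212 ± 1763 and 3686 ± 2410 normalized counts (SD, n = 3 each). Even the lowest library had 572 reads on the gene.

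Cubn encodes cubilin, which binds intrinsic factor with vitamin B12, albumin and transferrin among other ligands. It lies on the same chromosome at 13276338 to 13491813 (minus strand, 67 exons). Cubn had values of 139, 4.14 and 306 under Trf1+/+ and of 472, 76.5 and 1079 under Trf1flox/flox, given in the order of replicates 1, 2 and 3. The order of the 3 control libraries was the same as for Lrp2, with replicate 2 lowest, and Trf1flox/flox replicate 3 was again the highest. The range was 260-fold, although the lowest value rested on only 5 reads. The means were 150 ± 151 and 542 ± 505 normalized counts (SD, n = 3 each).

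Amn encodes amnionless, the membrane partner that carries cubilin to the apical surface, and is a short gene on chromosome 12 at 111271095 to 111276426 (plus strand, 12 exons). Amn had values of 0, 10.8 and 482 under Trf1+/+ and of 0.859, 1088 and 208 under Trf1flox/flox. The library labelled Trf1+/+ replicate 1 had 0 reads, for which 3 reads, or 2.67 normalized counts, is the upper limit. Trf1flox/flox replicate 1 had 1 read, while Trf1flox/flox replicate 2 had 996. High and low libraries occurred in both groups, and the ordering was not that of Lrp2 or Cubn. On the log2(normalized count + 1) scale its SD within groups was 4.63, at the 99.4th percentile of all tested genes, whose median SD was 2.17.

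The sequences just upstream of the 3 receptor genes are shown because these genes serve the same complex. Lrp2 and Cubn shared much of their order of libraries, and Amn did not. Any part of these sequences in the levels was not tested. Each is the stretch before the RefSeq start site in GRCm38.p6, 5′ to 3′ on the gene's own strand, limited to bases outside the annotated gene. Capitals mark matches on either strand to the motifs searched. These were GTTAA (part of the site of the tubule factor HNF1), CAAAGTCCA (a site of HNF4), GGGCGG (the GC box), TATAAA and CACGTG. The last is 1 form of the E-box, and other forms were not searched. The Lrp2 window is chr2:69586066-69586279 on the minus strand, the Cubn window chr2:13491877-13492126 on the minus strand and the Amn window chr12:111270846-111271094 on the plus strand.
Lrp2: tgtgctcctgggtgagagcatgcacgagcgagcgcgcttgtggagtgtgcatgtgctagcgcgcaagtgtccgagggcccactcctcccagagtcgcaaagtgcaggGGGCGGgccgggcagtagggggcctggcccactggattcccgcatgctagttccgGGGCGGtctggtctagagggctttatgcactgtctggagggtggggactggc
Cubn: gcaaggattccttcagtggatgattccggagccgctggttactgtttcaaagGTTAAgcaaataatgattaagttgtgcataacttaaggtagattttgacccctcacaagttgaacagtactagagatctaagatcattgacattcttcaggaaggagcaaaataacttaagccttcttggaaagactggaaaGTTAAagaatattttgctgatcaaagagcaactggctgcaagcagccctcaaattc
Amn: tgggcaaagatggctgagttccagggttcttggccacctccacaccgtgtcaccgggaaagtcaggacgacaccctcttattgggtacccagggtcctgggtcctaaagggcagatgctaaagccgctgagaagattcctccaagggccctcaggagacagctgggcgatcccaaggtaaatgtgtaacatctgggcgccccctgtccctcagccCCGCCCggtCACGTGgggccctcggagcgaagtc
The Lrp2 window was GC-rich, at 65.9%, with 2 GC boxes, and the Amn window, at 61.0%, had 1 GC box and 1 match to CACGTG. The Cubn window had 39.6% GC and no GC box but 2 matches to GTTAA. Of 32817 promoter windows of the same table, 32.7% held the GC box, 21.7% GTTAA, 12.4% TATAAA, 6.02% CACGTG and 0.384% CAAAGTCCA. The commoner matches are thus found in many genes. A match is a run of letters and not evidence of binding.

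Lrpap1 encodes the receptor-associated protein, the chaperone that keeps ligands off megalin while it folds (chromosome 5, 35091501 to 35105766, minus strand). Lrpap1 had values of 4017, 1588 and 3153 under Trf1+/+ and of 2516, 707 and 3217 under Trf1flox/flox. Its range, 5.68-fold, was the narrowest of the 7 genes, and its lowest library was Trf1flox/flox replicate 2. Dab2 encodes the adaptor that binds the megalin tail and brings it into clathrin-coated pits (chromosome 15, 6299788 to 6440712, plus strand). Dab2 had values of 3320, 501 and 1972 under Trf1+/+ and of 749, 2628 and 1974 under Trf1flox/flox. The lowest and the highest Dab2 values were both controls, replicates 2 and 1, and the Trf1flox/flox values lay between them. Neither gene had fewer than 605 reads in any library.

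Clcn5 encodes ClC-5, the chloride-proton exchanger of early endosomes whose loss causes Dent disease (chromosome X, 7153810 to 7319358, minus strand). Clcn5 had values of 5.34, 1002 and 168 under Trf1+/+ and of 418, 626 and 385 under Trf1flox/flox. The 3 Trf1flox/flox values lay close together, inside a control range that ran from 6 reads to 1209. Ocrl encodes an inositol polyphosphate 5-phosphatase of endosomes and the Golgi apparatus that is lost in Lowe syndrome (chromosome X, 47912387 to 47965868, plus strand). Ocrl had values of 0, 576 and 366 under Trf1+/+ and of 218, 16.4 and 181 under Trf1flox/flox. Ocrl had 0 reads in the library labelled Trf1+/+ replicate 1 and 15 reads in Trf1flox/flox replicate 2, the libraries with the largest shares of otherwise expressed genes at 0 (12.9% and 9.01%, against 0.932% to 3.68% in the other 4). The part of that gene loss in the Amn, Clcn5 and Ocrl values was not tested.

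**Figure D1:**
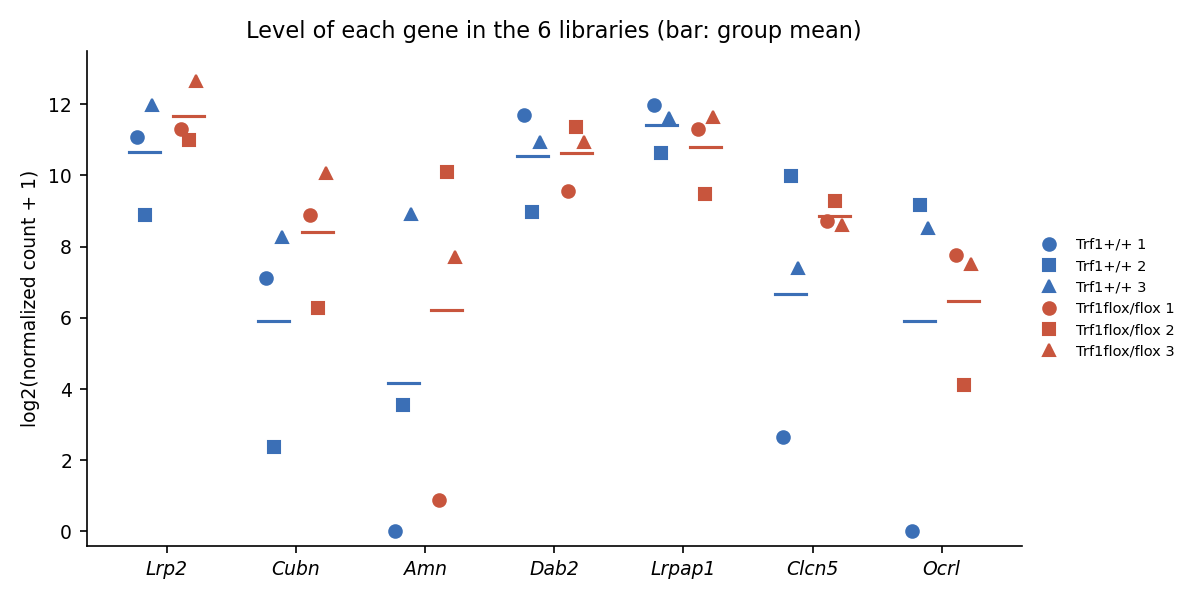
Normalized counts of the 7 genes in each of the 6 libraries, as log2(normalized count + 1), with Trf1+/+ and Trf1flox/flox libraries side by side and the line at each group's mean. Lrp2, Dab2 and Lrpap1 lie at 473.9 normalized counts or higher in every library, whereas Amn runs from 0 to 1088 and the genotypes overlap for all 7 genes.

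Clcn5 and Ocrl are X-linked, and the libraries differed in markers of sex. Trf1flox/flox replicate 1 had 1565 normalized counts of Xist, the RNA that silences an X chromosome in female cells, where the other 5 had at most 55.7. The Y-linked genes Ddx3y, at 997, 602 and 781 under Trf1+/+ and 0, 116 and 291 under Trf1flox/flox, and Uty, at 52.6, 159 and 321 against 2.58, 7.65 and 48.2, did not overlap between genotypes (limma adjusted p = 0.996 and 0.968). Of all tested genes, 3.33% were lower in Trf1flox/flox without overlap. Eif2s3y, also Y-linked, overlapped, at 942, 1060 and 1376 against 0.859, 1138 and 397. The 418 and 218 normalized counts of Clcn5 and Ocrl in Trf1flox/flox replicate 1 lay within the range of the other libraries. The part of sex in the genotype comparison was not tested.

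To compare the genes with each other, normalized counts were divided by the length of each gene's exons in kilobases (kb). By the mean of 6 libraries on this scale the order was Lrpap1 at 615 per kb, Dab2 at 253, Lrp2 at 177, Amn at 162, Clcn5 at 37.9, Ocrl at 23.8 and Cubn at 23.2, against a median of 45.2 over 9781 tested genes with a length. By these means the first 4 were above the typical tested gene and the last 3 below it. Amn was nevertheless at 0, 5.84 and 0.466 per kb in Trf1+/+ replicates 1 and 2 and Trf1flox/flox replicate 1. On the log2 scale Amn was level with Clcn5, with a mean difference of 0.058 (SD 3.83). The order of the means was the same when the longest coding transcript set the length. Of the 6 steps between neighbours, only that from Lrpap1 to Dab2 exceeded its own spread, with a mean log2 difference of 1.36 (SD 1.32 over 6 libraries, Lrpap1 higher in 5 of 6). Megalin and its adaptor were not separated, with a mean log2 difference per kb of 0.61 between Dab2 and Lrp2 (SD 1.06, Dab2 higher in 4 of 6). Lrp2 to Amn had a mean log2 difference of 2.78, but with an SD of 4.04. Exon lengths ran from 1.84 kb for Amn to 16.7 kb for Lrp2. Reverse transcription was primed with oligo(dT), and how evenly reads covered the long transcripts was not tested.

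Lrp2 led its own receptor family by mean level. Of the 9 LDL receptor family genes analysed it was first at 177 normalized counts per kb, followed by the sorting receptor Sorl1 at 106, Lrp10 at 78.6 and Lrp6 at 42.1. It was first in only 3 of the 6 libraries, and Sorl1 was above it in 3. Clcn5 had a mean of 37.9 per kb, where the other endosomal and lysosomal chloride-proton exchangers Clcn3, Clcn4, Clcn7 and Clcn6 had means of 63.4, 55.4, 47.9 and 9.63 per kb. Among 9 inositol phosphatase genes Ocrl was the fourth by mean, at 23.8 per kb, and its rank ran from 2 to 6 over the libraries. Inpp5b, the closest relative of Ocrl, had 98.0 per kb and was above Ocrl in 6 of 6 libraries.

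**Figure D2:**
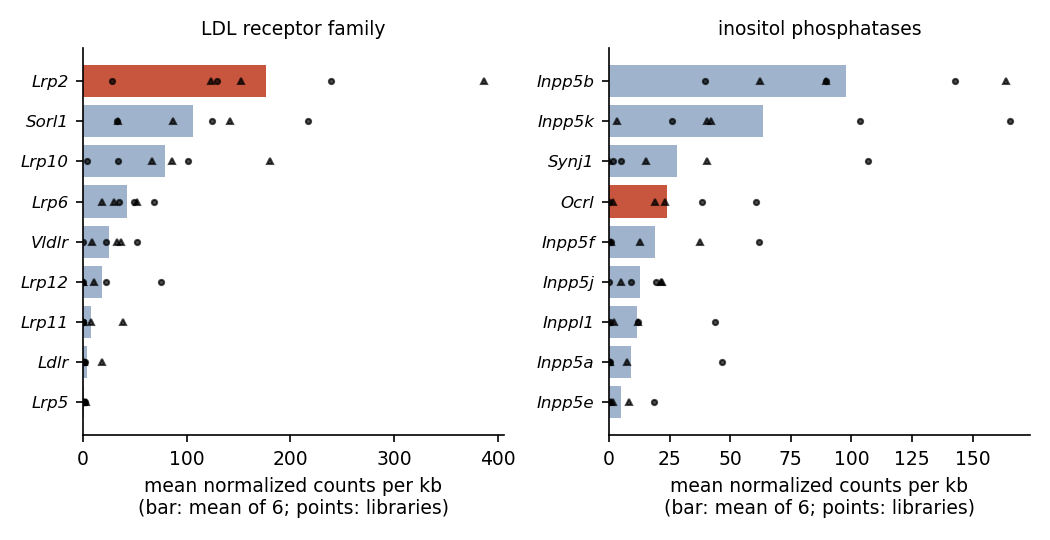
Mean normalized counts per kb of exon over the 6 libraries (bars, from 0) with each library as a point (circles Trf1+/+, triangles Trf1flox/flox), for the LDL receptor and inositol phosphatase families, with Lrp2 and Ocrl in red. Lrp2 has the longest bar of its family at 177, while Inpp5b at 98.0 leads the other family and Ocrl stands at 23.8.

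The genotype comparison asked whether these genes differed between the libraries labelled Trf1flox/flox and those labelled Trf1+/+. Terf1 itself had a log2 difference of -1.04 between them (SE 2.22, limma adjusted p = 0.996). By limma on log2(normalized count + 1), with p-values adjusted by Benjamini-Hochberg over 9966 genes, 0 of the 7 genes passed an adjusted p of 0.05, as did 0% of all tested genes. At an unadjusted p of 0.05, 0 of the 7 passed by limma, against 4.56% of all tested genes (3.54% with the higher mean log2 value in Trf1flox/flox and 1.01% with the lower). By edgeR 0 of the 7 passed either threshold, against 0% adjusted and 1.97% unadjusted of all tested genes, and by DESeq2 0 of the 7, against 0.582% adjusted and 4.11% unadjusted. The groups overlapped for all 7 genes, where 8.68% of tested genes had groups that did not overlap (5.35% with Trf1flox/flox higher and 3.33% with it lower). An exact permutation test over libraries cannot go below 0.1 with 3 against 3.

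The largest log2 difference, Trf1flox/flox minus Trf1+/+, was that of Cubn, at 2.49 (SE 1.86, 95% interval -2.04 to 7.02, limma adjusted p = 0.996, exact permutation p = 0.4, two-sided). Lrp2 had a log2 difference of 1.01 (SE 1.10, 95% interval -1.68 to 3.70, limma adjusted p = 0.996, exact permutation p = 0.5). These intervals include both no difference and differences of several fold. For Amn the log2 difference was 2.07 with an interval from -5.56 to 9.71, which excludes very little. For Clcn5 it was 2.19 (SE 1.88), although it was 0.19 in edgeR and 0.28 in DESeq2, and 0.18 in limma without the library labelled Trf1+/+ replicate 1. The Lrp2 and Cubn differences were 0.14 and 0.72 without Trf1+/+ replicate 2.

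The chaperone gene Lrpap1 had a log2 difference of -0.60 (SE 0.95, 95% interval -2.93 to 1.72), and it was the only gene with the lower mean log2 value in Trf1flox/flox. Dab2 had a log2 difference of 0.08 (SE 1.07) that turned to -0.032 in edgeR and -0.091 in DESeq2. Ocrl had a log2 difference of 0.57 (SE 2.67) that turned to -1.20 in edgeR, -1.18 in DESeq2 and -0.31 with a pseudocount of 10. Both are therefore without a stable direction. In limma 6 of the 7 genes had a positive value and 1 a negative value, with a median log2 difference of 1.01 beside 0.20 over all tested genes, of which 55.9% were positive. Without the library labelled Trf1+/+ replicate 1, 4 of the 7 were positive in limma with a median of 0.18, and without Trf1+/+ replicate 3 the median was 1.88. In edgeR and in DESeq2 4 of the 7 were positive, with medians of 0.19 and 0.28 beside -0.04 and -0.05 over all tested genes.

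**Figure D3:**
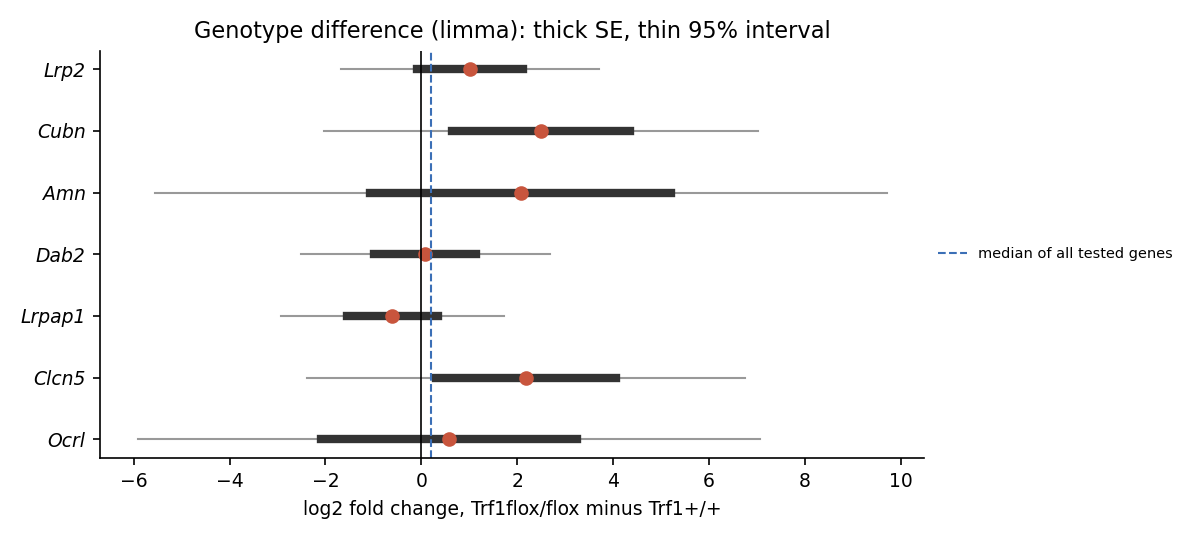
Log2 difference between Trf1flox/flox and Trf1+/+ libraries for each of the 7 genes by limma, with the standard error as a thick bar and the 95% interval as a thin line (3 libraries per group). Every interval crosses 0, and the dashed line marks the median of all tested genes at 0.20.

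Because the libraries held different amounts of tubule RNA, each gene was also set against the sum of 20 proximal tubule markers in the same library, a list without any of the 7 genes. That sum was 145602, 35110 and 141289 normalized counts under Trf1+/+ and 36861, 115291 and 177416 under Trf1flox/flox, so the libraries low in proximal tubule RNA were found in both groups. Lrp2 amounted to 1.48%, 1.35% and 2.83% of it in Trf1+/+ and to 6.91%, 1.78% and 3.64% in Trf1flox/flox. The difference between genotypes was 0.99 on the log2 scale (exact permutation p = 0.2, n = 3 each, two-sided), with overlapping groups. It was 0.51 without Trf1flox/flox replicate 1 and 0.42 when the mean of the markers' log2 values took the place of their sum. Of the marker sum, 13.7% to 49.4% came from Kap, an androgen-regulated proximal tubule gene. In Trf1flox/flox replicate 1, the library rich in Xist, the male-biased tubule genes Slc7a13 and Slc22a30 were at 0. With these 3 markers left out, a choice made after seeing the data, Lrp2 was 3.08%, 1.88% and 3.67% of the sum in Trf1+/+ and 8.01%, 2.45% and 6.43% in Trf1flox/flox.

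Dab2 followed the marker sum most closely. It made up 2.28%, 1.43% and 1.40% of it in Trf1+/+ and 2.03%, 2.28% and 1.11% in Trf1flox/flox, a log2 difference of 0.06 (exact permutation p = 1, n = 3 each). The SD of log2 Dab2 over the 6 libraries was 1.07, that of its log2 ratio to the proximal tubule sum 0.43, and that of its ratio to the sum of loop, distal and collecting duct markers 1.52. The corresponding SDs for Lrp2 were 1.27, 0.90 and 1.68. For Cubn they were 2.70, 2.32 and 2.98. All 3 genes, and Amn with 4.30, 3.90 and 4.75, thus varied less against the proximal tubule markers than alone, and more against the other tubule markers.

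The remaining 3 genes had the opposite relation to the proximal tubule sum. The SD of log2 Lrpap1 was 0.92 alone and 1.20 as a ratio to that sum. For Clcn5 the values were 2.64 and 3.28, and for Ocrl 3.50 and 4.08. Against the sum of loop, distal and collecting duct markers the SDs were 1.06 for Lrpap1, 2.70 for Clcn5 and 3.49 for Ocrl. These were near or above the SDs of the genes alone, so none of these genes followed those markers closely. As background, Lrpap1 and Ocrl are widely expressed genes, and Clcn5 is also found in intercalated cells of the collecting duct. These spreads describe 6 libraries that share their tissue and sort, and were not tested.

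Ratios between the genes of the complex were formed within each library, on normalized counts without correction for length, so that only their change from library to library can be read. Cubn per Lrp2 was 0.0643, 0.00874 and 0.0766 in Trf1+/+ and 0.185, 0.0372 and 0.167 in Trf1flox/flox, a log2 difference of 1.48 (exact permutation p = 0.3, n = 3 each). Without Trf1+/+ replicate 2, where Cubn had 5 reads, that difference was 0.58. Amn per Cubn was 0, 2.60 and 1.57 in Trf1+/+ and 0.00182, 14.2 and 0.193 in Trf1flox/flox, with no common level in either group. The Amn to Cubn ratio thus ran from 0 to 14.2, with high and low libraries in both groups. Lrpap1 per Lrp2 was 1.86, 3.35 and 0.788 in Trf1+/+ and 0.988, 0.344 and 0.499 in Trf1flox/flox, a log2 difference of -1.62 (exact permutation p = 0.2, n = 3 each). The overlap came from Trf1flox/flox replicate 1, whose ratio exceeded that of Trf1+/+ replicate 3. Dab2 per Lrp2 was 1.54, 1.06 and 0.493 in Trf1+/+ and 0.294, 1.28 and 0.306 in Trf1flox/flox (log2 difference -0.93, exact permutation p = 0.3, n = 3 each). Over the 11 ratios formed, to the marker sum and between genes, the Benjamini-Hochberg adjusted exact permutation p was 0.66 to 1.

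**Figure D4:**
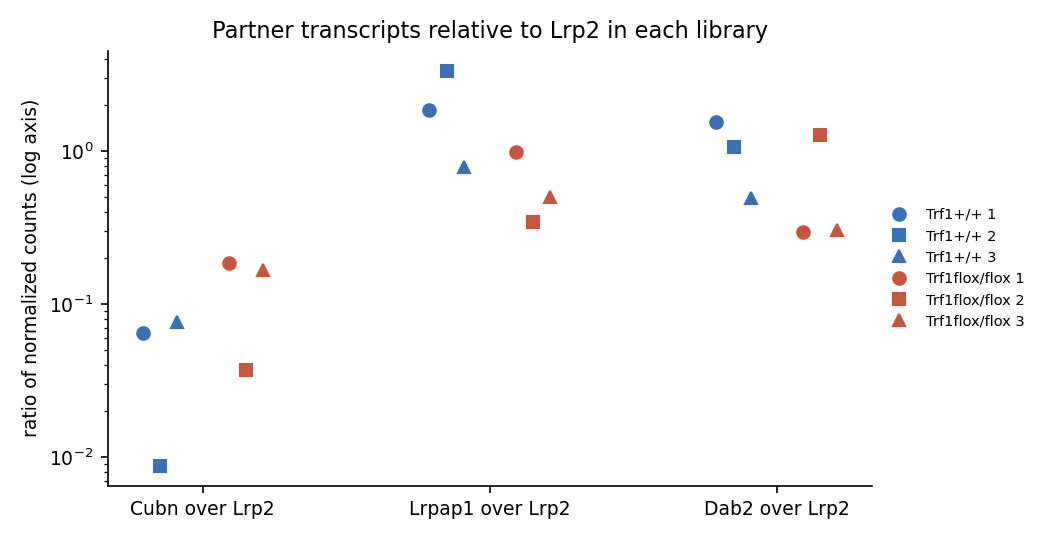
Ratios of Cubn, Lrpap1 and Dab2 to Lrp2, from normalized counts, in each of the 6 libraries, on a log axis, with Trf1+/+ and Trf1flox/flox libraries side by side. The Lrpap1 ratios run from 0.344 to 3.35 and the Cubn ratios from 0.00874 to 0.185, and the genotypes overlap in each.

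Among the 7234 genes averaging 100 normalized counts or more, those whose pattern over the 6 libraries was most like that of Lrp2 were found by the root mean square difference of centred log2 values. The closest were Mep1a, the brush border protease meprin alpha (0.13), Slc27a2, a fatty acid transport protein (0.29), Polr3e, an RNA polymerase subunit (0.35), the elastase gene Cela1 (0.35) and the organic anion transporter Slco1a6 (0.37). The sodium-phosphate cotransporter Slc34a1 ranked 19 of 7234 at 0.57, and the transcription factor Hnf4a ranked 129. Partners of megalin ranked lower, with Dab2 at 289, Lrpap1 at 577, Cubn at 1784, Clcn5 at 5284, Ocrl at 6520 and Amn at 6781. The measure is not scaled for spread, so a gene with wider changes than Lrp2 ranks lower even in the same order. Cubn had the order of Lrp2 within each group, but an SD of log2 values of 2.70 against 1.27. Seen from Cubn, the closest gene was Psme4 at 0.70, Lrp2 ranked 50 and Amn 6715. With 6 libraries that share a tissue, these ranks are a description.

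**Figure D5:**
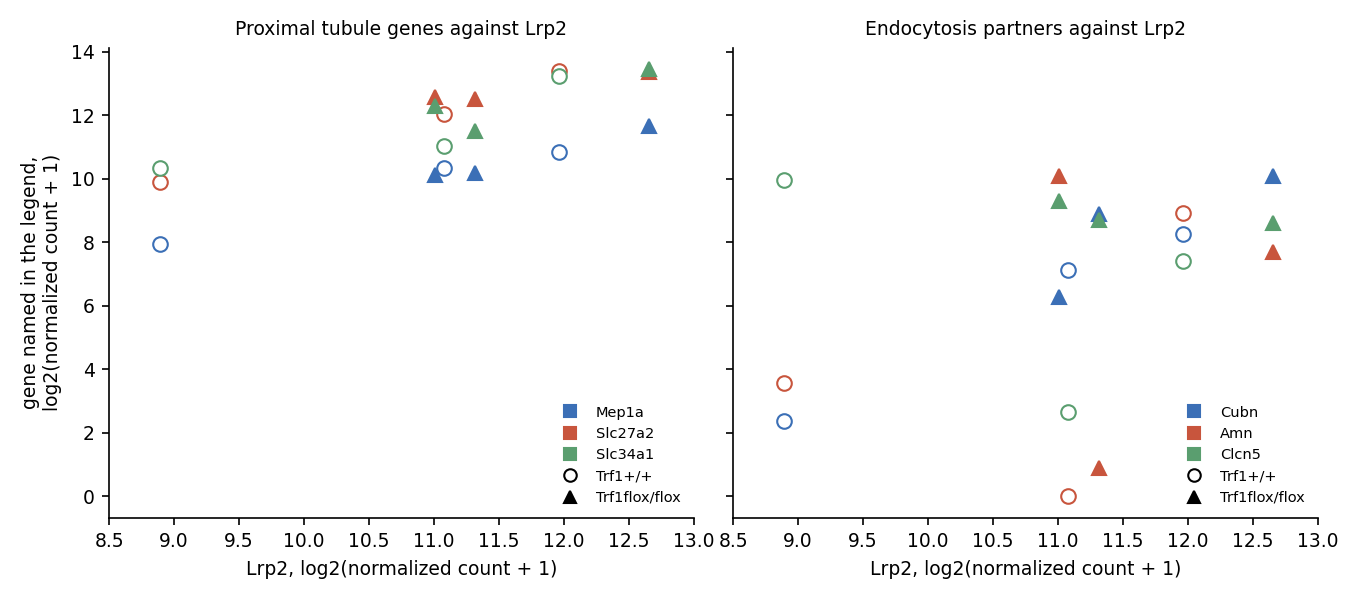
Log2(normalized count + 1) of other genes against that of Lrp2, with each point a library (open circles Trf1+/+, filled triangles Trf1flox/flox). Mep1a, Slc27a2 and Slc34a1 on the left climb with Lrp2, with root mean square differences of 0.13, 0.29 and 0.57. Mep1a and Slc27a2 are the 2 genes closest to Lrp2 by this measure, so their climb follows from how they were picked. On the right, Cubn climbs with Lrp2 over a wider range (1.38), while Amn and Clcn5 do not follow it. Dab2 (0.97) and Lrpap1 (1.10), partners closer to Lrp2 than those drawn, are not shown, so the panels are not a test of one group against the other.

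Other genes of the pathway gave no call either, in lists of 8 to 23 genes analysed. Of 20 tested genes for cargo adaptors, the clathrin coat and vesicle scission, 0 passed the limma adjusted p of 0.05, with 14 positive and 6 negative values (11 and 9 under TMM scaling) and a median log2 difference of 0.37. Cltb, a clathrin light chain, had normalized counts of 175, 431 and 537 under Trf1+/+ and of 1802, 1558 and 646 under Trf1flox/flox, groups that did not overlap (5.35% of tested genes were higher in this way, log2 difference 1.82, SE 0.90, limma adjusted p = 0.996). Dab1, a relative of Dab2, had 619.5 normalized counts in Trf1flox/flox replicate 1, 63.4 in replicate 3 and under 1 in the other 4. Dab2 itself was at 501 normalized counts or more in every library. Myo6, the motor that moves endocytic vesicles along actin, had normalized counts of 7265, 2253 and 1754 under Trf1+/+ and of 2213, 1545 and 1211 under Trf1flox/flox.

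Of 20 tested early and recycling endosome genes, 0 passed, with 9 positive and 11 negative values and a median of -0.25. Without Trf1+/+ replicate 3 or without Trf1flox/flox replicate 1 there were 11 positive and 9 negative values, with medians of 0.15 and 0.14. Rab5b, a GTPase of early endosomes, had normalized counts of 718, 839 and 646 under Trf1+/+ and of 350, 1.09 and 205 under Trf1flox/flox, without overlap (3.33% of tested genes were lower in this way, log2 difference -3.78, SE 2.03, limma adjusted p = 0.996). Its relative Rab5c had 19.6, 366 and 114 in Trf1+/+ and 644, 231 and 506 in Trf1flox/flox, with overlap. Among the 7 other LDL receptor family genes tested 3 values were positive and 4 negative, among 8 tested CLC genes and their subunits 6 and 2 (4 and 4 in edgeR), and among 8 inositol phosphatases and OCRL partners 4 and 4. None of these passed the limma adjusted p of 0.05.

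The ligand and vitamin genes connect the receptors to what they retrieve. Of 10 tested, 0 passed, with 6 positive and 4 negative values in limma (4 and 6 in edgeR). Vdr, the vitamin D receptor, had normalized counts of 2325, 1739 and 1368 under Trf1+/+ and of 1061, 682 and 442 under Trf1flox/flox. Every Trf1flox/flox library was below every Trf1+/+ library, as for 3.33% of tested genes (log2 difference -1.37, SE 0.79, limma adjusted p = 0.996). Ttr, encoding transthyretin, a megalin ligand, had 0, 51.4 and 51.2 in Trf1+/+ and 80.8, 333 and 924 in Trf1flox/flox. Its groups did not overlap either, as for 5.35% of tested genes with Trf1flox/flox higher (log2 difference 4.39, SE 1.88, limma adjusted p = 0.996). Its difference rests partly on a library at 0. Tcn2, encoding the vitamin B12 carrier transcobalamin, had 816, 1026 and 4979 in Trf1+/+ and 1882, 3949 and 4052 in Trf1flox/flox. Of the 20 proximal tubule markers 0 passed, with 14 positive and 6 negative values and a median of 0.42, and of the 12 other tubule markers 0 passed, with 6 and 6 and a median of -0.32. The proximal tubule list turned to 9 positive and 11 negative values with a median of -0.20 without Trf1+/+ replicate 2, and to 20 and 0 with a median of 1.11 without Trf1flox/flox replicate 1.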

How the data were processed

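Expression was measured by RNA sequencing of 6 libraries of 500 sorted kidney cells. The deposited values are a signal made by the authors: reads counted per gene, divided by a size factor for each library. Per the labels and methods, TopHat2 2.0.10 with Bowtie 1.0.0, SAMtools 0.1.19 and HTSeq 0.6.1 were used after FastQC 0.11.7, with DESeq2 for the scaling. The submitters' processing notes name GRCm39, while the study's methods name GRCm38 with GENCODE vM20. The table has no coordinates, so positions and lengths here are those of GENCODE vM21 (11911 of 12125 symbols matched, all 7 genes included). The kit is not strand-specific, and Cubn and Dab2 share 368 and 211 exonic bases with Gm13270 and Gm18888, so reads there cannot be told apart. Dividing by the smallest step gave whole reads for 100% of values within 0.0001, which recovered 10263382 to 12248797 reads per library. Reads are not unique molecules, so a floor of 3 reads covers counting error only.

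Genotypes were taken from the labels, with replicates numbered in accession order. Genes reaching 10 normalized counts in 3 or more libraries were tested by limma 3.58.1 (R 4.3.3) on log2(normalized count + 1), where a fold change of a low gene is understated, with Benjamini-Hochberg adjustment over all 9966 genes. Exact permutation tests enumerated all 20 assignments of the genotype labels. Alternatives were pseudocounts of 0.5 and 10, no filter, a filter of 50, upper quartile, TMM and library total scaling, limma with a trend, edgeR 4.0.16 and DESeq2 1.42.0 on the recovered reads, and each library left out. The fits were first run on simulated data with less spread between libraries than seen here, so that run does not measure their error in these data. By rule the text names all 7 genes and, from each list of other genes, those of highest level or smallest p, with the leading genes of each family by level, while Clcn4, Clcn6, Dab1, Hnf4a, Slc7a13 and Slc22a30 were picked after their values were seen. The 7 genes and the lists were chosen with earlier results of these data known.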

Additional observations from a re-analysis of the deposited data

How the results depend on the processing

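No alternative brought any of the 7 genes past a threshold. No paired analysis was possible because the labels give each library its own identifier and no number shared between the genotypes. Of 277 alternative values for 25 tested quantities, 241 kept their direction and 36 reversed, all without passing a test. Another scaling in limma moved the median log2 difference of all tested genes from 0.20 to 0.35 (upper quartile), 0.17 (TMM) and 0.35 (library totals), and it was -0.04 in edgeR and -0.05 in DESeq2, where the model changed as well. Over all tested genes DESeq2 called 58 at an adjusted p of 0.05 where limma and edgeR called 0, and at an unadjusted p edgeR called 196 and DESeq2 410 where limma called 454, which became 322 to 829 when a library was left out, the highest without Trf1+/+ replicate 3.

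The log2 genotype difference of Dab2 reversed to -0.032 in edgeR and -0.091 in DESeq2, and that of Ocrl to -0.31 with a pseudocount of 10, in the exact test too, -1.20 in edgeR and -1.18 in DESeq2. Relative to the proximal tubule markers, Dab2 reversed to -0.51 with the mean of the markers' log2 values and to -0.077 without Kap, Slc7a13 and Slc22a30 (added after seeing the data), and Ocrl to -0.33 with a pseudocount of 10 and -0.019 with the mean of the markers. The cause was not tested.

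When a library was left out, in limma and the exact test alike, the log2 difference ranged from 0.14 to 1.67 for Lrp2, 0.72 to 3.67 for Cubn, -0.0056 to 4.74 for Amn, -0.70 to 0.66 for Dab2, -1.03 to 0.065 for Lrpap1, 0.18 to 3.84 for Clcn5 and -2.38 to 2.21 for Ocrl. The ends of the Amn, Clcn5 and Ocrl ranges at the low side came without the library labelled Trf1+/+ replicate 1, and those of Lrp2, Cubn and Dab2 without Trf1+/+ replicate 2. Relative to the marker sum the ranges were 0.51 to 1.49 for Lrp2, 1.37 to 3.71 for Cubn, -0.38 to 4.10 for Amn, -0.14 to 0.38 for Dab2, -1.52 to 0.22 for Lrpap1, -0.19 to 4.49 for Clcn5 and -2.75 to 2.87 for Ocrl, and between genes 0.58 to 2.22 for Cubn per Lrp2, -3.42 to 2.48 for Amn per Cubn, -2.17 to -1.13 for Lrpap1 per Lrp2 and -1.63 to -0.57 for Dab2 per Lrp2. Of the 8 lists of other genes, all but the adaptor and clathrin list had medians of both signs when a library was left out. With 3 libraries per group, an exact p cannot go below 0.1, and Amn, Cubn, Clcn5 and Ocrl had under 20 reads in 1 or more libraries.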
